A study of Mus musculus with 3 samples.

Results

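The genes described here encode integrin subunits, laminin chains and nidogens, chosen by symbol as the rows named Itga, Itgb, Lama, Lamb, Lamc or Nid followed by a subunit number or letter. The rule found 40 of the 51826 gene rows deposited, under 39 symbols: 27 integrin rows, 11 laminin chains and 2 nidogens. The symbol Itgam stood on 2 rows, which are told apart below by their gene IDs. Of the 40 rows, 36 reached an estimated count of 20 in at least 1 library and were compared between genotypes, out of 18074 such genes in the whole table.

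Laminins are trimers of an alpha, a beta and a gamma chain that self-assemble into the sheet of every basement membrane, and nidogens bridge that sheet to collagen IV. Integrins are heterodimers of an alpha and a beta subunit that span the plasma membrane and hold cells to laminins, collagens, fibronectin or other cells. In the embryonic spinal cord a basement membrane lies under the pia, where the endfeet of neural progenitors attach through integrins, and another surrounds the blood vessels.

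RNA was sequenced from the spinal cord of C57BL/6 mouse embryos at embryonic day 13.5, with 1 library per genotype. The first genotype, dE3, was Nestin-Cre;Ctnnb1-floxed(Ex3), in which deletion of exon 3 of Ctnnb1, the β-catenin gene, is labelled gain of function. The second, cKO, was Nestin-Cre;Ctnnb1-floxed(Ex2-6), in which deletion of exons 2 to 6 is labelled loss of function, and the third was wild type (WT). Nestin-Cre acts in neural progenitors and the cells they give rise to, so blood vessels, meninges and other tissue outside the neural lineage are largely not its target. The number of embryos behind a library is not stated in the labels. The comparisons ask how each form of the gene goes with transcript levels in the cord.

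Libraries held between 32167470 and 34790053 estimated counts. Levels are given as CPM, the estimated count scaled by library size, and differences as ratios of scaled counts with a 95% interval that covers counting error only. A gene is called higher or lower where the ratio is at least 2 in either direction and the interval leaves out 1. By this rule 10.3% of all 18074 genes were called in dE3 and 6.91% in cKO, each against WT. Since each genotype has a lone library, differences cannot be set against a spread between replicates, and no p-value was computed. Whole-gene Ctnnb1 stood at 461 CPM in dE3, 422 CPM in cKO and 544 CPM in WT. A list of 12 feedback targets of Wnt signalling summed to 2601 CPM in dE3, 327 CPM in cKO and 298 CPM in WT. The labelled tissue was checked with neuron and neural progenitor markers, none of which was at 0 in any library. Their sums were 10361 and 1913 CPM in dE3, 13070 and 1753 CPM in cKO, and 12189 and 2004 CPM in WT. In dE3 against WT, 1 of 13 neural progenitor markers was called higher and 3 lower. Of 11 measured markers of the astrocyte lineage, 6 were called lower and 1 higher in dE3, with a median log2 ratio of -1.14, and their sum was 1664 CPM in dE3, 1661 CPM in cKO and 1631 CPM in WT.

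Markers of other tissues also differed between the libraries. Skeletal muscle markers summed to 240 CPM in dE3, 67.7 CPM in cKO and 22.3 CPM in WT, and of 18 measured, 18 were called higher in dE3 and 14 in cKO, each against WT. In WT, Tnni1, Tnnc2, Myf5, Myf6 and Ckm of this list were at 0. Ckm, with 28 counts in dE3 and 0 in cKO, was measured only through dE3, where it was called higher. Calls of markers measured in this way are partly set by the count filter. Over all genes 6.52% were called higher in dE3 and 3.50% in cKO, each against WT. Cartilage markers summed to 1258 CPM in dE3, 578 CPM in cKO and 237 CPM in WT, with 14 of 14 called higher in dE3 and 10 of 14 in cKO. Markers of fibroblasts and meninges summed to 1771 CPM in dE3, 1997 CPM in cKO and 923 CPM in WT, with 8 of 20 called higher in each mutant. Endothelial markers summed to 360 CPM in dE3, 463 CPM in cKO and 338 CPM in WT, with none of 16 called higher in either mutant and 1 called lower in dE3. Muscle, vessels and meninges carry basement membranes and cartilage has a matrix of its own, and the part of their RNA in the results below was not tested. In whole tissue, fewer cells of a type and less RNA per cell cannot be told apart.

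The most abundant member called in dE3 was Lamb1, the beta chain of most embryonic laminins, at 121 CPM in dE3 and 51.1 CPM in WT. Lama5, the alpha chain of mature basement membranes, stood at 23.5 CPM in dE3 and 10.7 CPM in WT. Lamb3, a chain of epidermal laminin, and Itga10, a collagen receptor of cartilage cells, were also higher. The member called lower was an Itgam row whose exons another row shares, and the integrin beta subunits Itgb4, Itgb5 and Itgb8 each stood lower in dE3 by less than 2-fold. Among the 36 members, 6 were called higher and 1 lower in dE3 against WT. Over all 18074 genes 10.3% were called in that comparison, 6.52% higher and 3.78% lower. Of the 6 members called higher, Lamb3 and Itgax reached a count of 20 only in dE3. The median log2 ratio was 0.25 over the members and 0.0041 over all genes, and 25 of 36 members had a log2 ratio above 0, as did 50.5% of all genes.

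In cKO, Itga11, a collagen receptor of mesenchymal cells, Lama2, the alpha chain of muscle and nerve laminin, the gamma chain Lamc3 and the linker Nid2 were each about 2-fold or more higher than in WT. Thus 4 of 36 members were called higher and 0 lower in cKO against WT, where 6.91% of all genes were called, 3.50% higher and 3.41% lower. The median log2 ratio was 0.30 over the members and 0.0016 over all genes. A log2 ratio above 0 was found for 31 of 36 members and for 50.3% of all genes. The interval lay above 1 for 20 members, below 1 for 2 and held 1 for 14, while over all genes 27.2% lay above 1 and 26.7% below. In dE3 the interval lay above 1 for 19 members, below 1 for 8 and held 1 for 9, while over all genes 29.1% lay above 1 and 28.8% below. At a threshold of 1.5-fold, 16 of 36 members were called in dE3 and 9 in cKO, each against WT, where 19.4% and 13.9% of all genes were called. These comparisons share the WT library.

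**Figure D1:**
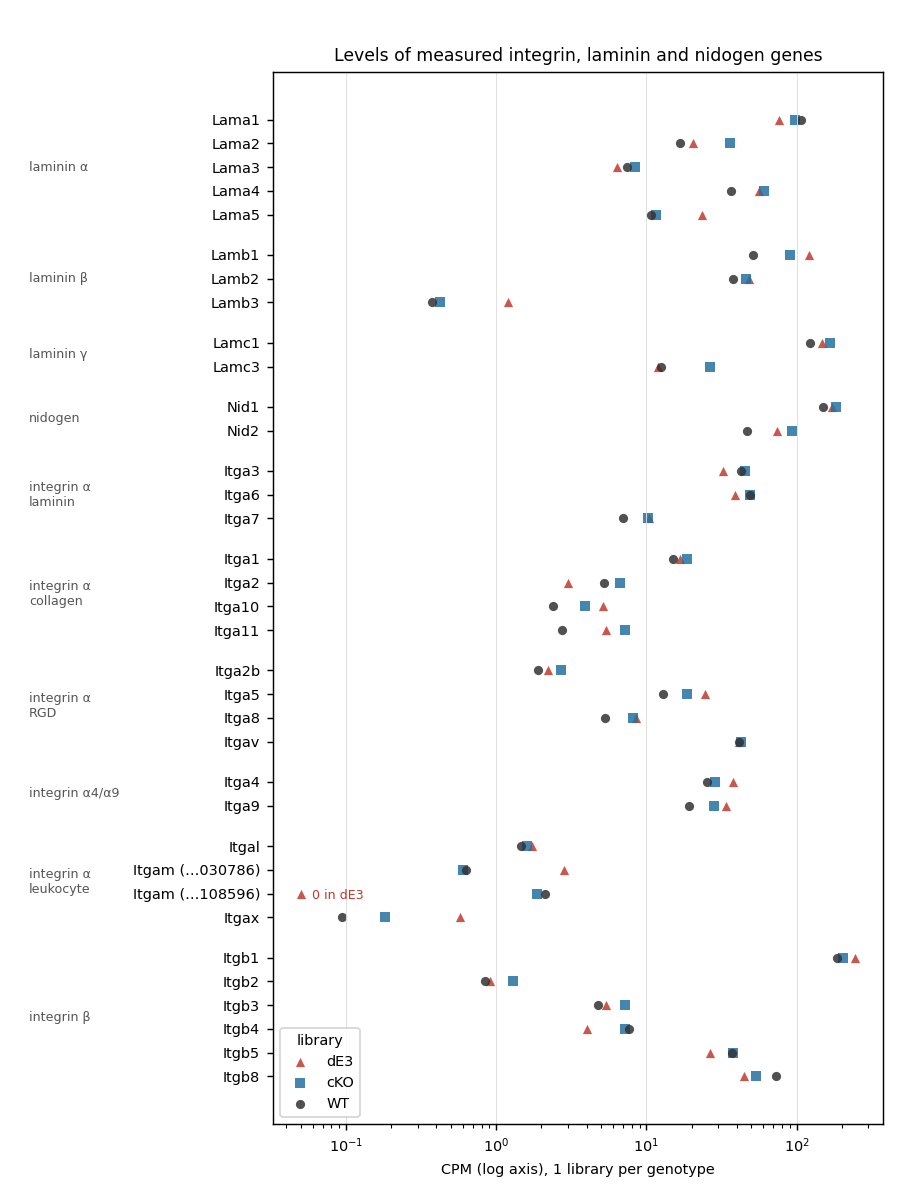
Level of 35 of the 36 measured genes in CPM on a log axis, grouped by role, with a triangle for dE3, a square for cKO and a circle for WT, 1 library each. Lamb1 lies at 121 CPM in dE3, 90.6 CPM in cKO and 51.1 CPM in WT, and the Itgam row at 0 in dE3 is drawn at the left edge.

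Compared per length, by the TPM values of the authors, Itgb1 was the most abundant member in each library, at 161 TPM in dE3, 134 TPM in cKO and 122 TPM in WT. Itgb1 is the beta subunit shared by most laminin, collagen and fibronectin receptors. It made up 79.3% of the summed TPM of the 8 integrin beta genes in dE3, 71.1% in cKO and 67.3% in WT. Nid1 and Lamc1 were among the next 3 genes in every library. Lamb1 ranked 3 among the members in dE3, 5 in cKO and 9 in WT. Adjacent ranks carry no spread, since each level comes from 1 library.

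The laminin alpha chains decide which receptors a laminin binds, and their makeup differed between the libraries. Lama1, the alpha chain of the earliest embryonic laminin, had 76.6 CPM in dE3, 97.3 CPM in cKO and 107 CPM in WT. Its count ratio was 0.717 (0.681 to 0.754) in dE3 and 0.911 (0.868 to 0.956) in cKO, each against WT. By TPM, Lama1 made up 33.7% of all laminin alpha chains in dE3, 36.2% in cKO and 52.4% in WT. Lama4, the chain of vessel and nerve sheath laminins, had 56.3 CPM in dE3, 60.5 CPM in cKO and 36.4 CPM in WT. Lama4 ratios were 1.55 (1.44 to 1.66) in dE3 and 1.66 (1.54 to 1.79) in cKO, short of the 2-fold threshold. Its share of alpha chain TPM was 40.6% in dE3, 36.4% in cKO and 29.2% in WT, so that Lama4 stood above Lama1 in dE3, close to it in cKO and below it in WT.

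Lama2, whose loss causes muscular dystrophy in mouse and human, had 20.6 CPM in dE3, 35.9 CPM in cKO and 16.7 CPM in WT. It was called higher in cKO, by 2.15-fold (1.94 to 2.38), and stood 1.23-fold (1.10 to 1.38) higher in dE3. Between the mutants the Lama2 ratio of dE3 over cKO was 0.572 (0.521 to 0.628). Lama5 showed the other pattern, with 23.5 CPM in dE3, 11.6 CPM in cKO and 10.7 CPM in WT. Lama5 was called higher in dE3, by 2.20-fold (1.94 to 2.50) over WT and by 2.03-fold (1.80 to 2.30) over cKO, and its cKO interval against WT held 1 (0.934 to 1.26). Epidermis markers summed to 48.1 CPM in dE3, 26.2 CPM in cKO and 21.8 CPM in WT. Of 10 measured, 7 were called higher and 0 lower in dE3, and 2 higher and 1 lower in cKO. Over all genes 6.52% were called higher and 3.78% lower in dE3, and 3.50% and 3.41% in cKO. Krt8 and Krt19 of that list were at 0 in WT. Krt8, with 45 counts in dE3 and 12 in cKO, passed the count filter only through dE3. Lama3, the alpha chain of epidermal laminin, had 6.33 CPM in dE3, 8.39 CPM in cKO and 7.39 CPM in WT, and both of its intervals against WT held 1.

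The beta chains were led by Lamb1, on chromosome 12 from 31265234 to 31329644 (GRCm38, plus strand). Its counts were 4242 in dE3, 2993 in cKO and 1632 in WT. Lamb1 was called higher in dE3, by 2.37-fold (2.24 to 2.51), and was 1.77-fold (1.67 to 1.89) higher in cKO without reaching the threshold. The dE3 library stood 1.34-fold (1.27 to 1.40) above cKO. Lamb2, the beta chain of synaptic and mature basement membranes, had 47.9 CPM in dE3, 46.0 CPM in cKO and 37.8 CPM in WT. Its ratios against WT were 1.27 (1.17 to 1.36) in dE3 and 1.22 (1.13 to 1.31) in cKO. Lamb3 was rare, with counts of 42 in dE3, 14 in cKO and 12 in WT, and it reached a count of 20 only in dE3. It was called higher in dE3, by 3.19-fold (1.65 to 6.66) over WT and by 2.83-fold (1.51 to 5.60) over cKO. The 3 beta chains together summed to 87.6 TPM in dE3, 68.6 TPM in cKO and 44.3 TPM in WT. Part of these sums came from short Lamb2 transcripts with few counts. In dE3, ENSMUST00000194421 carried 6.59 TPM on 54 counts and ENSMUST00000195483 carried 4.55 TPM on 31. In WT they carried 3.51 TPM on 27 counts and 0.89 TPM on 6.

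The gene-level Lamb1 counts were divided between a pair of long transcripts in a way that differed between libraries. ENSMUST00000002979 received 3356 counts in dE3, 436 in cKO and 400 in WT, which is 79.1% of the gene in dE3, 14.6% in cKO and 24.5% in WT. ENSMUST00000169088 received 857 counts in dE3, 2543 in cKO and 1219 in WT. The first transcript shares 94.2% of its 50-base words with the second, so few reads can tell them apart. Without ENSMUST00000002979 the log2 ratio of Lamb1 in dE3 against WT was -0.61, the opposite direction to that of the whole gene. Their starts lie 59 bases apart in the same promoter.

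The promoters of the members called higher in dE3 against WT with a count of at least 100 in some library are printed to show where those transcripts begin and what the windows hold. They come from RefSeq on GRCm38.p6, run 5′ to 3′ along the gene from 250 bases before to 50 after its start, and lie at chr12:31265043-31265342 (plus strand) for Lamb1, chr2:180225810-180226109 (minus strand) for Lama5 and chr3:96645334-96645633 (plus strand) for Itga10. Capitals in Lamb1 mark the start of ENSMUST00000169088 and, further on, that of ENSMUST00000002979. The capital in Lama5 marks the start of ENSMUST00000015791, and the capitals in Itga10 mark a TCF/LEF-type motif.
Lamb1: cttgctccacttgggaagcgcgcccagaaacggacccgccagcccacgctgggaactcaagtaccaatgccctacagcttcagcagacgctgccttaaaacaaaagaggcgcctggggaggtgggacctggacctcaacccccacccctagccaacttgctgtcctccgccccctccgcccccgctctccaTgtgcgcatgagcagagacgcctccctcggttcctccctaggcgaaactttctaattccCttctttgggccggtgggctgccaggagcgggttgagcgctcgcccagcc
Lama5: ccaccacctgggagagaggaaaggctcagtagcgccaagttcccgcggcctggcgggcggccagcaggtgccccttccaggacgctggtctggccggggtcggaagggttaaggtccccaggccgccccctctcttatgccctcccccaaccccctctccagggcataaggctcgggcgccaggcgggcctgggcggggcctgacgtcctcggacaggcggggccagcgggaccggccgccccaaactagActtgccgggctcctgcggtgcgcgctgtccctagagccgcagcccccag
Itga10: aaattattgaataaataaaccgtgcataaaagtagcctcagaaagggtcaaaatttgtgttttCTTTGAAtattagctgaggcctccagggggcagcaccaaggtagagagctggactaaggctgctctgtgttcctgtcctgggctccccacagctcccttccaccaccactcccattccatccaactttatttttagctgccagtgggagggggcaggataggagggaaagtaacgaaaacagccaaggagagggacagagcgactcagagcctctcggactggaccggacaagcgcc
The motif was searched as CTTTGAA, together with its variants CTTTGAT and also CTTTGTA and lastly CTTTGTT, on both strands. It occurred in 2 of the 27 promoter windows found for members (24 symbols), which is 7.41%, and in 16.9% of all 32851 windows of the table. The windows with a match were those of Itga10 and Itga1, both with CTTTGAA, starting 187 bases before the Itga10 start and 113 bases before the Itga1 start. A match is a run of letters and no evidence of binding, and the lack of one says nothing of sites elsewhere.

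**Figure D2:**
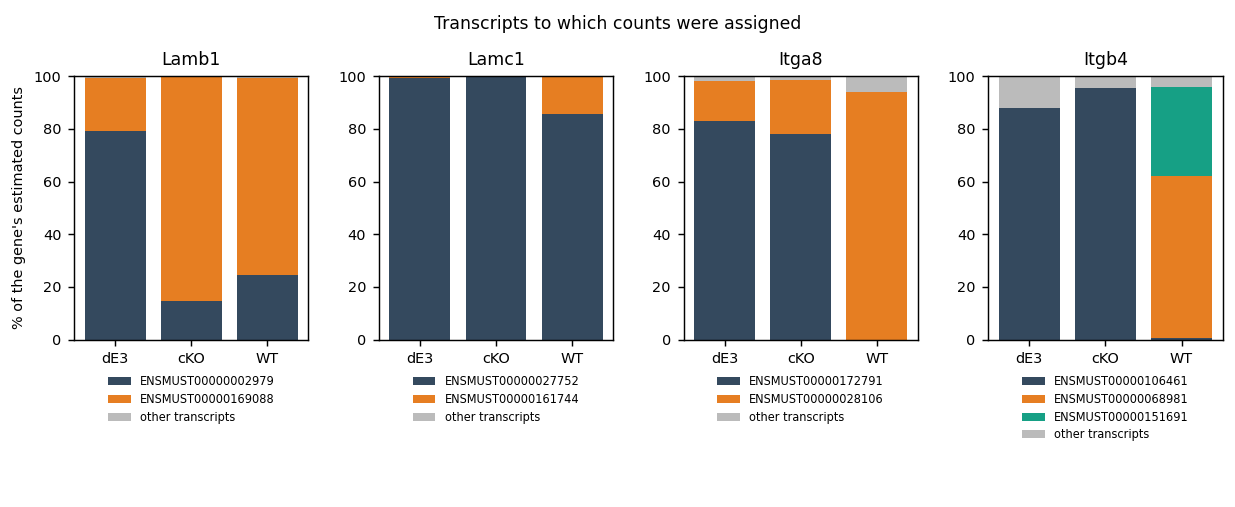
Percent of each gene's estimated counts assigned to its main transcripts in dE3, cKO and WT, 1 stacked bar per library. ENSMUST00000002979 holds 79.1% of Lamb1 in dE3, 14.6% in cKO and 24.5% in WT, and ENSMUST00000172791 holds 82.9% of Itga8 in dE3, 78.1% in cKO and 0% in WT.

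Among the gamma chains, Lamc1, which most laminins contain, had 147 CPM in dE3, 167 CPM in cKO and 123 CPM in WT. The Lamc1 ratio was 1.20 (1.15 to 1.25) in dE3 and 1.37 (1.31 to 1.42) in cKO, each against WT. Its TPM ran the other way, at 49.5 in dE3, 54.5 in cKO and 64.7 in WT. The short transcript ENSMUST00000161744 received 27 counts in dE3, 0 in cKO and 549 in WT, and it alone carried 29.1 TPM of the WT value. Lamc3, a gamma chain of retina and nerve among other tissues, had counts of 421 in dE3, 879 in cKO and 400 in WT. It was called higher in cKO over WT by 2.13-fold (1.89 to 2.40) and called lower in dE3 than in cKO by 2.22-fold (1.97 to 2.49). The dE3 and WT values of Lamc3 differed by a ratio of 0.960 (0.835 to 1.10).

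Both nidogens were abundant. Nid1 had 173 CPM in dE3, 182 CPM in cKO and 149 CPM in WT, with ratios against WT of 1.16 (1.12 to 1.21) in dE3 and 1.22 (1.18 to 1.27) in cKO. Nid2 had 73.8 CPM in dE3, 93.3 CPM in cKO and 46.5 CPM in WT. The Nid2 ratio in cKO was 2.01 (1.89 to 2.14), barely past the threshold, and 1.59 (1.49 to 1.69) in dE3. Nid2 shares 8.45% of its exon bases with Rtraf on the opposite strand, which had 5038 counts in dE3, 3400 in cKO and 3508 in WT. No source used here says whether strand was used in counting, and reads of that stretch cannot be told apart.

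**Figure D3:**
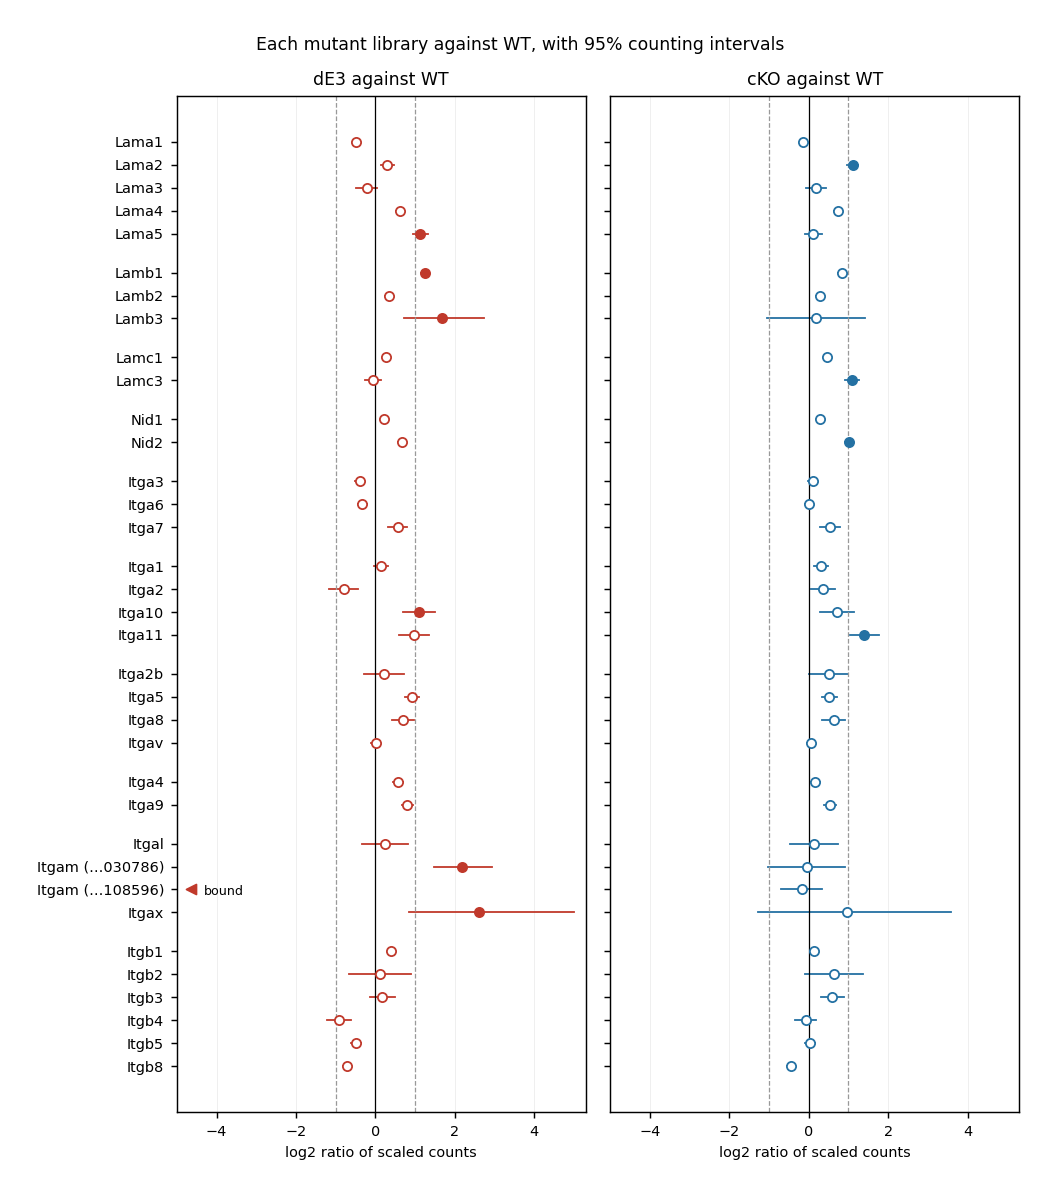
Log2 ratio of scaled counts of the same 35 genes, dE3 against WT on the left and cKO against WT on the right, with 95% counting intervals as bars, filled points for called genes and dashed lines at 2-fold. Lamb1 is filled at 1.24 in dE3 and open at 0.83 in cKO, and the Itgam row at 0 in dE3 is drawn as a bound.

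The integrin alpha subunits that bind laminin are Itga3, Itga6 and Itga7, and each differed by less than 2-fold in all comparisons. Itga6, the main laminin receptor of neural progenitors, had 38.9 CPM in dE3, 49.0 CPM in cKO and 48.7 CPM in WT. Its ratio was 0.799 (0.742 to 0.859) in dE3 against WT, and the interval in cKO held 1 (0.938 to 1.08). The non-coding ENSMUST00000126787 of Itga6 received 83 counts in dE3, 1 in cKO and 372 in WT. Without it the log2 ratio in dE3 against WT was -0.021 and the interval held 1 (0.910 to 1.07). Itga3, a receptor for laminins with the Lama5 or Lama3 chain, had 32.5 CPM in dE3, 45.5 CPM in cKO and 42.5 CPM in WT, with a ratio of 0.763 (0.705 to 0.827) in dE3. Itga7, the laminin receptor of skeletal muscle and of vessel walls, ran the other way, with 10.3 CPM in dE3, 10.2 CPM in cKO and 7.01 CPM in WT. The Itga7 ratios against WT were 1.47 (1.24 to 1.75) in dE3 and 1.45 (1.22 to 1.73) in cKO, while skeletal muscle markers summed to 240 CPM in dE3 and 67.7 CPM in cKO. Mural cell markers summed to 339 CPM in dE3, 325 CPM in cKO and 278 CPM in WT.

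The collagen-binding alpha subunits were low in level, and 1 of 4 was called in each comparison, where 10.3% of all genes were called for dE3 and 6.91% for cKO against WT, and 11.0% between the mutants. Itga11 had 5.36 CPM in dE3, 7.18 CPM in cKO and 2.72 CPM in WT, and it was called higher in cKO by 2.64-fold (2.05 to 3.41). In dE3 its ratio was 1.97 (1.52 to 2.57), just under the threshold. Itga2, a receptor of epithelial cells and platelets, had 3.02 CPM in dE3, 6.72 CPM in cKO and 5.26 CPM in WT. Itga2 was called lower in dE3 than in cKO, by 2.22-fold (1.76 to 2.83), and stood 1.74-fold (1.36 to 2.24) lower in dE3 than in WT. Itga1, the collagen receptor of smooth muscle and other mesenchymal cells, had 16.7 CPM in dE3, 18.8 CPM in cKO and 15.1 CPM in WT. Its interval held 1 in dE3 (0.975 to 1.25) and lay just above it in cKO (1.10 to 1.40).

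Itga10, on chromosome 3 from 96645584 to 96664519 (GRCm38, plus strand), had counts of 179 in dE3, 128 in cKO and 76 in WT. It was called higher in dE3, by 2.15-fold (1.63 to 2.85), beside cartilage markers at 1258 CPM in dE3 and 237 CPM in WT. By TPM the log2 ratio was 0.67, under the threshold. The read-through gene Gm42957 covers 33.5% of the Itga10 exon bases and had 119 counts in dE3, 0 in cKO and 15 in WT. With both rows summed the counts were 298 in dE3, 128 in cKO and 91 in WT. Where on Gm42957 its counts fell was not tested, so the sum may hold counts from outside Itga10. The summed ratio was 2.99 (2.35 to 3.82) in dE3 against WT, 1.36 (1.03 to 1.80) in cKO against WT and 2.19 (1.78 to 2.72) in dE3 against cKO.

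The alpha subunits that bind the RGD motif of fibronectin and related proteins each differed by less than 2-fold in all comparisons. Itga5, the fibronectin receptor, had 24.5 CPM in dE3, 18.6 CPM in cKO and 13.0 CPM in WT. Its ratios against WT were 1.89 (1.68 to 2.13) in dE3 and 1.43 (1.26 to 1.63) in cKO. Itga8, a receptor for nephronectin, had 8.53 CPM in dE3, 8.15 CPM in cKO and 5.29 CPM in WT, with ratios of 1.61 (1.33 to 1.96) in dE3 and 1.54 (1.27 to 1.88) in cKO. The Itga8 counts were assigned to different transcripts. ENSMUST00000172791, annotated as a target of nonsense-mediated decay, received 248 counts in dE3, 210 in cKO and 0 in WT, and the protein-coding ENSMUST00000028106 received 45 in dE3, 55 in cKO and 159 in WT. Itgav, the alpha subunit shared by several RGD receptors, was at 41.6 CPM in dE3, 42.9 CPM in cKO and 41.4 CPM in WT, with intervals of 0.933 to 1.08 in dE3 and 0.962 to 1.12 in cKO. Itga2b, the platelet fibrinogen receptor, had 2.23 CPM in dE3, 2.70 CPM in cKO and 1.91 CPM in WT, and its ratio was 1.17 (0.823 to 1.66) in dE3 and 1.41 (1.01 to 1.99) in cKO.

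Itga4, which binds fibronectin and VCAM1 on neural crest and blood cells, had 37.8 CPM in dE3, 28.4 CPM in cKO and 25.5 CPM in WT. The Itga4 ratio was 1.48 (1.36 to 1.62) in dE3 and 1.11 (1.01 to 1.23) in cKO. Itga9, a receptor for tenascin and related ligands, had 33.7 CPM in dE3, 28.0 CPM in cKO and 19.2 CPM in WT. Its ratios were 1.75 (1.59 to 1.93) in dE3 and 1.45 (1.31 to 1.61) in cKO. Neither gene was called, and in both the dE3 value was the highest of the 3 libraries.

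The integrin beta subunits split. Itgb1 had 245 CPM in dE3, 202 CPM in cKO and 185 CPM in WT, with ratios of 1.32 (1.28 to 1.37) in dE3 and 1.09 (1.05 to 1.13) in cKO. Itgb8, which pairs with Itgav in neural progenitors and activates latent TGF-beta, ran opposite, with 44.5 CPM in dE3, 53.3 CPM in cKO and 73.2 CPM in WT. It stood 1.64-fold (1.54 to 1.75) lower in dE3 and 1.37-fold (1.29 to 1.46) lower in cKO than in WT. Itgb8 and Lama1 were the 2 members whose intervals lay below 1 in cKO, and both also lay below 1 in dE3. Itgb5, another partner of Itgav, had 26.4 CPM in dE3, 37.9 CPM in cKO and 37.1 CPM in WT, and stood 1.41-fold (1.29 to 1.54) lower in dE3. By whole-gene counts Itgb8, Lama1 and Itga6 were lower in dE3, where 6 of 11 astrocyte lineage markers were called lower and 1 higher. The Itga6 interval held 1 without the non-coding ENSMUST00000126787. In cKO, 0 of these 11 markers were called, while Itgb8 and Lama1 also stood below WT. The part of astrocyte lineage cells in these values was not tested. Itgb3, the partner of Itga2b and Itgav, had 5.42 CPM in dE3, 7.24 CPM in cKO and 4.79 CPM in WT, with ratios of 1.13 (0.910 to 1.41) in dE3 and 1.51 (1.23 to 1.86) in cKO.

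Itgb4, which joins Itga6 in hemidesmosomes and in Schwann cells, had 4.02 CPM in dE3, 7.21 CPM in cKO and 7.60 CPM in WT. It stood 1.89-fold (1.53 to 2.34) lower in dE3 than in WT, just inside the 2-fold limit. The transcript ENSMUST00000106461 received 124 counts in dE3, 227 in cKO and 2 in WT. ENSMUST00000068981 instead had 0 counts in dE3, 0 in cKO and 149 in WT. The non-coding ENSMUST00000151691 had 0 counts in dE3, 0 in cKO and 82 in WT, which is 33.7% of the WT count. The whole-gene ratio includes these counts, and a ratio from protein-coding transcripts only was not computed. Schwann cell markers summed to 168 CPM in dE3, 216 CPM in cKO and 148 CPM in WT.

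The leukocyte integrins were scarce. Itgal had counts of 61 in dE3, 53 in cKO and 47 in WT, and Itgb2, the beta subunit of this family, had 32 in dE3, 43 in cKO and 27 in WT. All intervals of both genes held 1. Itgax, a subunit of dendritic cells and activated microglia, lay at the measuring threshold, with counts of 20 in dE3, 6 in cKO and 3 in WT. It passed that threshold only through dE3, the library where it was called higher. Its ratio was 6.08 (1.80 to 31.9) in dE3 against WT and 3.14 (1.22 to 9.56) in dE3 against cKO. Macrophage and microglia markers summed to 111 CPM in dE3, 153 CPM in cKO and 112 CPM in WT, with 0 of 16 called in either mutant against WT.

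Itgam, the marker integrin of microglia, stood on 2 rows with opposite calls in dE3. Row ENSMUSG00000030786, on chromosome 7 from 128062640 to 128118491 (GRCm38, plus strand), had counts of 99 in dE3, 20 in cKO and 20 in WT, and was called higher in dE3 by 4.51-fold (2.77 to 7.71). Row ENSMUSG00000108596, from 128062683 to 128128160 on the same strand, had 0 in dE3, 62 in cKO and 68 in WT. With dE3 set to a floor of 3 counts, this row was 24.9-fold lower in dE3 than in WT and 21.9-fold lower than in cKO. The counting intervals reached down to 19.7-fold against WT and 17.3-fold against cKO. GENCODE vM21 tags the second row as read-through, under the name Gm49368, and 71.8% of its exon bases lie in exons of the first. Summed, the rows had 99 counts in dE3, 82 in cKO and 88 in WT. The ratio of the sum was 1.03 (0.762 to 1.38) in dE3 and 0.902 (0.659 to 1.23) in cKO, each against WT, so the 2 opposite calls were not present in the sum. Without this split, 5 of 35 members were called in dE3 against WT and 4 of 35 in cKO against WT, where 10.3% and 6.91% of all genes were called.

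**Figure D4:**
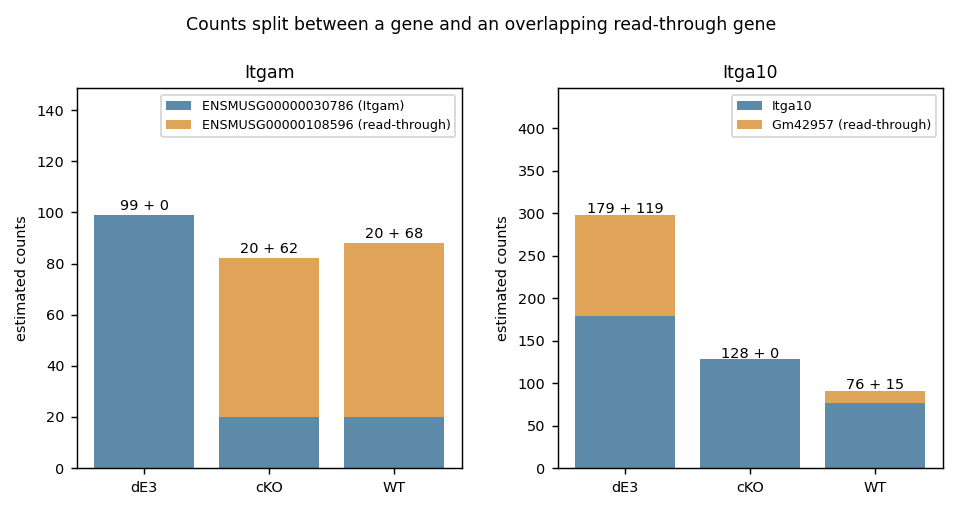
Estimated counts of Itgam and Itga10 stacked with those of the read-through gene that overlaps each, for dE3, cKO and WT. The Itgam sum is 99 in dE3, 82 in cKO and 88 in WT, and the Itga10 sum is 298 in dE3, 128 in cKO and 91 in WT.

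The 4 members under the threshold were Itgad, Itgae, Itgb6 and Itgb7. Itgad was at 0 in each library, and a count of 0 allows up to 3 counts. Itgae, an integrin of mucosal T cells, had counts of 8 in dE3, 2 in cKO and 3 in WT, and the epithelial Itgb6 had 4 in dE3, 2 in cKO and 2 in WT. Itgb7, the partner of Itgae, had 13 in dE3, 10 in cKO and 7 in WT and lay just outside the threshold, while Itgax with 20 lay just inside.

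Set directly against each other, the mutants had 7 of 36 members called, where 11.0% of all genes were called, 6.62% higher and 4.38% lower in dE3 than in cKO. Lama5, Lamb3, Itgax and Itgam row ENSMUSG00000030786 were called higher in dE3. Lamb3 and Itgax had reached a count of 20 only in dE3. Itga2, Lamc3 and Itgam row ENSMUSG00000108596 were called lower. With the Itgam rows summed, whose ratio was 1.14 (0.840 to 1.54), 5 of 35 were called. The median log2 ratio was -0.18 over the members and 0.017 over all genes. Intervals lay above 1 for 10 members, below 1 for 18 and held 1 for 8, while over all genes 33.1% lay above 1 and 31.0% below. At 1.5-fold, 9 of 36 members and 22.0% of all genes were called.

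Other genes of the basement membrane and matrix were described from a list of 32, of which 32 were measured. Against WT, 13 were called higher and 0 lower in dE3, and 3 higher and 0 lower in cKO. Over all genes 6.52% were called higher in dE3 and 3.50% in cKO. The log2 ratios of this list had medians of 0.25 in dE3 and 0.46 in cKO, and those of all genes 0.0041 and 0.0016. Col4a6 had 56.0 CPM in dE3, 14.6 CPM in cKO and 11.0 CPM in WT, a ratio of 5.09 (4.54 to 5.72) in dE3. Its neighbour on the X chromosome, Col4a5, had 118 CPM in dE3, 44.1 CPM in cKO and 38.3 CPM in WT, a ratio of 3.08 (2.89 to 3.29). Both encode collagen IV chains of specialised basement membranes. Egfl6, a basement membrane ligand of Itga8, had 29.9 CPM in dE3, 7.93 CPM in cKO and 7.26 CPM in WT. Frem1, of the Fraser complex under epithelia, had 54.8 CPM in dE3, 17.2 CPM in cKO and 17.2 CPM in WT. Smoc2, a calcium-binding matrix protein, had 17.7 CPM in dE3, 8.18 CPM in cKO and 5.20 CPM in WT. The other 7 called in dE3, Fbln2 aside, had ratios between 2.01 and 3.01.

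Fbln2, which binds laminins and nidogens, was called higher in both mutants, with 46.7 CPM in dE3, 43.5 CPM in cKO and 15.4 CPM in WT. The other genes of this list called in cKO were Col18a1, at 93.3 CPM in dE3, 112 CPM in cKO and 54.6 CPM in WT, and Col15a1, at 28.9 CPM in dE3, 22.7 CPM in cKO and 11.4 CPM in WT. Like Fbln2, Col15a1 also met the rule for higher in dE3 against WT, and Col18a1 did not. Col15a1 and Col18a1 encode collagens with endostatin-type ends that lie in vessel basement membranes. Between the mutants, 6 genes of this list were called higher in dE3, namely Col4a4 at 3.11 CPM in dE3 and 1.09 CPM in cKO and the genes Col4a5, Col4a6, Egfl6, Frem1 and Smoc2. Spp1, the secreted ligand osteopontin, and Smoc1 were called lower. Over all genes 6.62% were called higher and 4.38% lower in that comparison. Spp1 had 2.48 CPM in dE3, 6.06 CPM in cKO and 4.44 CPM in WT. Smoc1 had 18.5 CPM in dE3, 37.5 CPM in cKO and 33.2 CPM in WT.

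**Figure D5:**
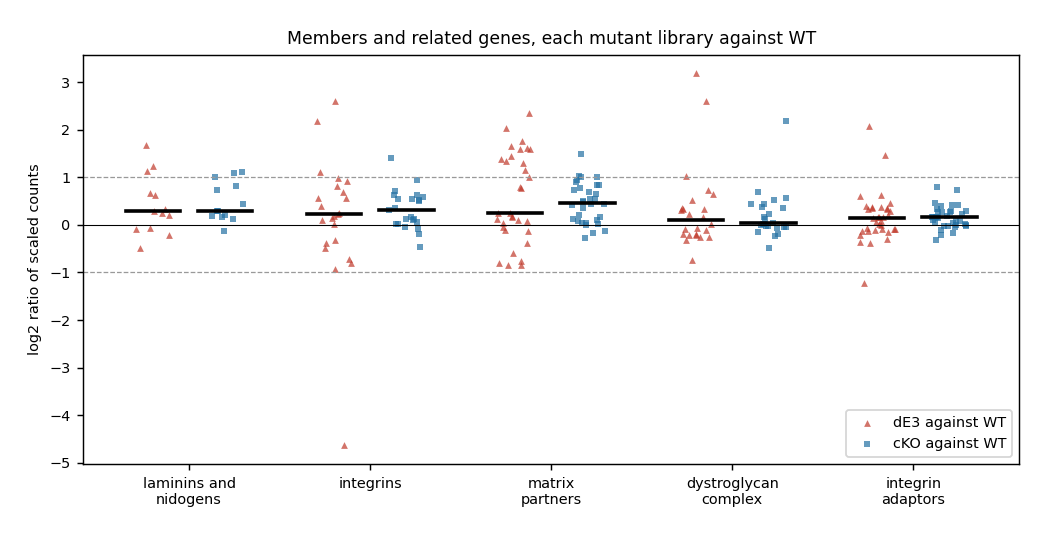
Log2 ratios of scaled counts against WT for the measured members and for 3 lists of related genes, with triangles for dE3 and squares for cKO, a bar at each median and dashed lines at 2-fold. The matrix list has its median at 0.25 in dE3 and 0.46 in cKO, and genes at 0 in a library (an Itgam row and Sgca among them) are drawn at their bound.

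A list of 24 genes of the dystroglycan complex and other laminin receptors had 3 called higher in dE3 and 1 in cKO, with 0 called lower in either. Over all genes 10.3% were called in dE3 and 6.91% in cKO, each against WT, in either direction. Sgca, a sarcoglycan of striated muscle, had 0.856 CPM in dE3, 0.121 CPM in cKO and 0 in WT. With 30 counts in dE3, Sgca passed the count filter only through that library, the one where it was called higher. With WT set to a floor of 3 counts, it was 9.12-fold higher in dE3. The skeletal muscle markers beside it summed to 240 CPM in dE3, 67.7 CPM in cKO and 22.3 CPM in WT, and their part in this value was not tested. Sdc1, a heparan sulphate syndecan, had 26.4 CPM in dE3, 20.9 CPM in cKO and 13.0 CPM in WT, a ratio of 2.03 (1.81 to 2.29) in dE3. Over the 24 genes the log2 ratios had a median of 0.094 in dE3 and 0.032 in cKO, and over all genes 0.0041 and 0.0016.

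Of the integrin adaptors and regulators, 35 were measured. In dE3 against WT 2 were called higher and 1 lower, and in cKO 0 were called, where 10.3% and 6.91% of all genes were called. Flnc, the muscle filamin, had 208 CPM in dE3, 84.9 CPM in cKO and 75.8 CPM in WT, a ratio of 2.75 (2.63 to 2.88) in dE3. Itgb1bp2, known as melusin and made in striated muscle, had 3.17 CPM in dE3, 0.787 CPM in cKO and 0.751 CPM in WT, a ratio of 4.22 (2.69 to 6.86). Ptk2b, a kinase related to focal adhesion kinase, had 0.713 CPM in dE3, 1.64 CPM in cKO and 1.66 CPM in WT. Its ratio in dE3 was 0.430 (0.256 to 0.704). The same 3 genes were called in the same directions in dE3 against cKO, where 11.0% of all genes were called.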

How the data were processed

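Per the labels' protocols, an mRNA-seq kit turned 1 µg of Trizol-extracted spinal cord RNA into each library. Bowtie2 2.3.2, CASAVA and GRCm38.p6 appear in the submitters' processing notes. No source used here gives the quantifier, the annotation release or the use of strand. The authors deposited estimated counts per gene and transcript, as whole numbers, with TPM and FPKM values, per the file headers. The deposited FPKM values were not used. The TPM of the authors served for levels between genes and as an alternative.

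Genes with a count of 20 or more in at least 1 library were measured, and TMM factors (edgeR 4.0.16, R 4.3.3) of 1.007 for dE3, 0.999 for cKO and 0.993 for WT scaled the library sizes. Ratios have exact conditional binomial (Clopper-Pearson) 95% intervals (scipy 1.17.1), covering counting error only, since without molecular identifiers reads are not independent. A library at 0 was set to a floor of 3 counts. No test was possible with 1 library per genotype. Coordinates and exon overlaps come from GENCODE vM21, promoters from RefSeq. The measured members are named, except where an item is not reported here, which also holds for the lists. Of the related lists, up to 6 called genes per comparison are named, those whose interval lay farthest from 1 first. Col4a4, Spp1 and Smoc1 come from dE3 against cKO. The members and lists were chosen with earlier results of these data known. Library names hold L2 for dE3 and WT but L3 for cKO, and what L3 marks cannot be told apart from the cKO genotype. The alternatives were library sizes without TMM, DESeq2 1.42.0 size factors, TPM, no count filter, a filter of 100, a 1.5-fold threshold and leaving out the transcript that differed most. Summing each gene with its read-through row was added after seeing the data.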

Additional observations from a re-analysis of the deposited data

How the results depend on the processing

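Library sizes without TMM factors, DESeq2 size factors and no count filter each gave the calls reported above, 7 in dE3 and 4 in cKO against WT, and 7 between the mutants. By TPM there were 8 in dE3, 6 in cKO and 7 between the mutants. These TPM calls rest on a ratio of at least 2 in either direction alone, with no interval required. In dE3 against WT, 6 of them were among the calls above, Itga11 and Itgb4 were added and Itga10 was lost. In cKO against WT, Itga2b and Itgax were added. A filter of 100 counts left 3 calls in dE3 against WT and 3 in dE3 against cKO, since Itgax, Lamb3 and the Itgam rows were not compared. At 1.5-fold there were 16 calls in dE3 against WT and 9 in cKO against WT, where 19.4% and 13.9% of all genes were called. Without the transcript that differed most, 29 members could be compared, of which 10 were called in dE3 against WT, 8 in cKO against WT and 10 between the mutants. Members with counts on only 1 transcript had nothing left out, so their calls could not change, among them Lamb3 and Itgam row ENSMUSG00000108596. Of the other calls in dE3 against WT, Itga10 was kept and Lamb1 was lost. Lama5, Itgax and Itgam row ENSMUSG00000030786 fell below the count filter without their main transcript and were not compared. Lamb1 in dE3 against WT then stood at a log2 ratio of -0.61, the only member called from whole-gene counts in any comparison to change sign. Among members not called from whole-gene counts, Itga8, Itgb1 and Lamc1 were then called lower in dE3 against WT. Itga11, Itga2b, Itgb5 and Lamb2 were then called higher. For each of these but Itga8, the transcript left out held most of the gene's WT counts, so the calls rest on the counts that remained. Whole-gene ratios in dE3 against WT were 1.32 for Itgb1 and 1.20 for Lamc1. Itga10 summed with its read-through gene was called higher in dE3 against cKO. Low members had wide intervals, with Itgax from 1.80 to 31.9. No paired analysis was possible because each genotype has 1 library.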

Other observations

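The laminin receptors Itga3 and Itga6, whose gene counts differed little between cKO and WT, had counts assigned to different transcripts in those libraries. For Itga3, ENSMUST00000001548 received 598 counts in dE3, 294 in cKO and 812 in WT, and ENSMUST00000107739 received 193 in dE3, 553 in cKO and 208 in WT. ENSMUST00000120375 of Itga3 received 315 in dE3, 640 in cKO and 309 in WT. For Itga6, the non-coding ENSMUST00000126787 received 83 counts in dE3, 1 in cKO and 372 in WT, and the protein-coding ENSMUST00000028522 received 735 in dE3, 1024 in cKO and 534 in WT. With 1 library per genotype these assignments have no replicate check.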
